A study of Mus musculus with 4 samples.

Results

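The comparison described here is the loss of MDR2 in mice whose growth hormone receptor (GHR) was intact: the MDR2-null liver array minus the wild-type liver array. Of 19938 mouse genes with a row that names exactly 1 gene, 10258 entered it, because the higher of the 2 arrays reached an intensity of 100. The other 9680 genes stayed below that level in both arrays. The study holds 4 whole-transcript microarrays, 1 each for wild-type mice, mice with MDR2 knocked out, mice with GHR knocked out, and mice with both knocked out. The mice were 8 weeks old and labelled male, and each array carried RNA pooled from 3 livers of 1 genotype, taken from snap-frozen tissue. The GHR-null and double-null arrays are used below as a second pair that also differs in MDR2 and shares no array with the first. The labels name neither the strain of the mice nor the alleles beyond "MDR2 knockout" and "GHR knockout", and nothing in them limits either loss to hepatocytes. With 1 pooled array per genotype there is no replicate error, so what follows is a description of these pools with no test and no p-value.

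MDR2 is the mouse name for the product of Abcb4, a transporter of the bile canaliculus that moves phosphatidylcholine from the hepatocyte membrane into bile. There the phospholipid forms mixed micelles with bile acids and shields the bile duct epithelium from their detergent action. Mice without it make bile nearly free of phospholipid and are known for injury of small bile ducts, portal inflammation, periductal fibrosis and, with age, liver tumours. The groups below follow the cell types such a liver holds: bile duct cells (cholangiocytes) with the small ducts that spread in injury, macrophages and other leukocytes, matrix-forming stellate cells and portal fibroblasts, endothelium, and hepatocytes. In bulk liver, more cells of a type and more RNA per cell cannot be told apart.

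Throughout, a pair of values is the intensity in the wild-type pool followed by that in the MDR2-null pool, both linear values. Abcb4 itself read 1120 and 663, 1.69-fold lower in the MDR2-null pool and still well inside the measured range. The position of its probe set relative to the disrupted part of the gene was not in the sources read here, and that level does not check the label. Ghr, intact in both, read 4944 and 4485. Of the 40 genes nearest to Abcb4 on its chromosome, 19 passed the level, and 3 (Steap4, Abcb1b and Cd36) were at least 1.5-fold higher and 1 (Cldn12) at least 1.5-fold lower. Xist, which is transcribed in females, read 16 and 18, and the Y-linked Eif2s3y read 899 and 840, so both pools matched their label. The GHR-null pool of the second pair did not: Xist read 1400 there beside Eif2s3y at 680, though it too is labelled male. Liver identity held, as all 21 measured hepatocyte markers passed the level, with a median log2 difference of −0.10, and albumin (Alb) read 15283 and 15242. Across genes, log2 intensities of the 2 pools correlated at a Pearson r of 0.988, a value that genes with very different levels dominate.

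Among the genes compared, more were at least 2-fold higher in the MDR2-null pool than at least 2-fold lower. Of the 10258 genes, 241 were at least 2-fold higher in the MDR2-null pool (2.35%) and 78 at least 2-fold lower (0.76%). At least 4-fold differences were seen for 27 higher and 7 lower genes. By sign alone 4556 of the genes were higher, 5627 lower and 75 equal, with a median log2 difference of −0.04. The authors' quantile normalization gives all arrays 1 distribution, so this balance does not bear on a shift shared by most genes. The higher genes came mostly from the low range in wild type, with a median intensity of 111 there against 296 in the MDR2-null pool, and 113 of them were under 100 in wild type. Lower genes came from a higher range, with a median of 588 in wild type against 212.5 where MDR2 was lost. Of these, 19 were under 100 where MDR2 was lost. So 113 higher and 19 lower genes passed the level through 1 array alone. With both arrays at 100 the counts were 128 higher and 59 lower. Outside this comparison, rows with no gene symbol had 51 higher and 84 lower at 2-fold, and rows with several symbols 8 and 12. Intensity includes background that was not measured separately, so folds that rest on values under 100 are uncertain.

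**Figure D1:**
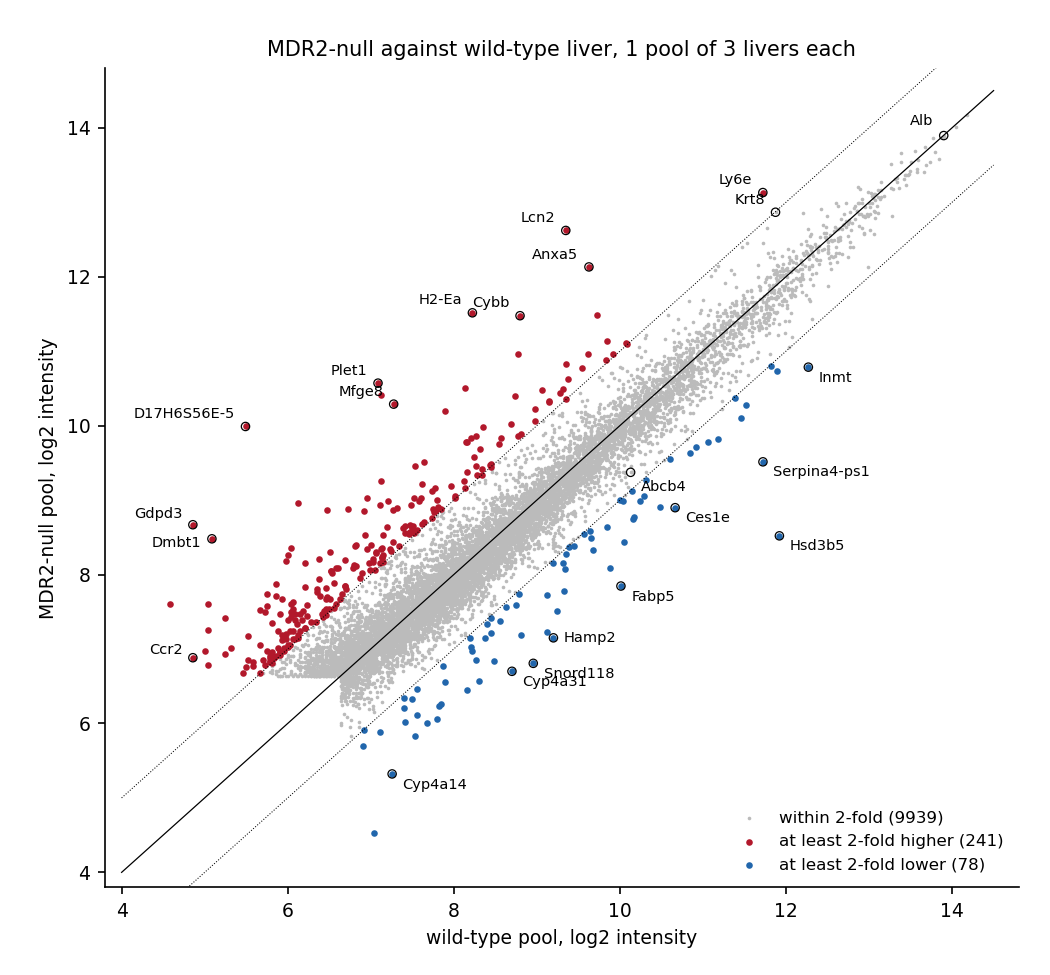
Log2 intensity of 10258 genes in the MDR2-null pool (vertical) against the wild-type pool (horizontal); the solid line marks equality and the dotted lines a 2-fold difference. The 241 red points lie at least 2-fold above the line and spread over the low and middle range, the 78 blue points lie at least 2-fold below it, and albumin sits on the line.

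At the 2-fold edge, Tead1 (133 and 266) was just inside the higher group, and Krt8 (3754 and 7466) was just outside it. Abca8a (1024 and 511) was just inside the lower group and Rdh11 (1066 and 536) just outside. The level edge was as densely filled, with 215 genes whose higher array lay between 100 and 104 and 242 between 95 and 99. For scale, the spread of a single difference, taken from how far the 4 arrays depart from additivity over 10764 genes, had a robust SD of 0.23 (log2). That scale includes any interaction of the GHR and MDR2 losses and any difference in sex composition. It does not measure spread between animals. For 571 genes with more than 1 row, 994 pairs of rows gave differences that spread with a robust SD of 0.12, and 95.3% of the pairs lay within 0.5 of each other. Of 12 further rows belonging to 11 of the 2-fold genes, 12 had the same sign and 10 were also at least 2-fold apart.

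Gene groups are counted at a 1.5-fold difference with the same level requirement. Across all genes, 627 were at least 1.5-fold higher, which is 6.11% of those passing the level and 3.14% of all with a row, and 367 were at least 1.5-fold lower, 3.58% and 1.84%. Medians of groups are taken over all members with a row, for comparison with 0.00 over all 19938 genes. Some genes, such as Cd44, Axl, Ctss and Cd24a, belong to more than 1 group.

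Some genes of the biliary epithelium and of injured, duct-like cells were higher in the MDR2-null pool, with most keratins among them but few ductal transcription factors, tight junction genes or S100 proteins. Among 7 keratins with a row, the intermediate filament proteins of epithelia, 5 were at least 1.5-fold higher and 0 lower, with a median log2 difference of 0.78. Krt8 read 3754 and 7466 and its partner Krt18 read 2191 and 4116, both abundant in wild type too, as hepatocytes make this pair. The cholangiocyte pair was low in wild type: Krt19 read 71 and 122 (1.72-fold higher) and Krt7 read 77 and 122 (1.58-fold). Krt23, a stress keratin of liver, had the largest difference of the family, 38 and 171, or 4.50-fold.

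Secreted and luminal proteins of mucosal epithelia included large differences. Plet1, a surface glycoprotein of epithelial progenitors, read 136 and 1521 (11.2-fold higher). Dmbt1, a mucosal scavenger receptor secreted by ductular cells, read 34 and 357 (10.5-fold). The trefoil peptides that protect mucosa were low but higher in the MDR2-null pool, Tff2 at 65 and 151 and Tff3 at 102 and 200. The mucin Muc1 read 74 and 134, and Wfdc2, an epithelial protease inhibitor, 61 and 139. In all, 6 of 15 members with a row were at least 1.5-fold higher and 0 lower, while 7 stayed below the level in both pools.

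Junction and surface proteins of epithelia followed in part. Epcam, an adhesion molecule of cholangiocytes and hepatic progenitors, read 48 and 113. The claudins Cldn7 (55 and 118), Cldn6 (70 and 146) and Cldn4 (75 and 139), which seal tight junctions, were the 3 of 17 tight junction genes at least 1.5-fold higher. Cldn12 (665 and 424) was the 1 that was lower, and the hepatocyte claudin Cldn1 read 2770 and 1952. Of 15 tetraspanins and related membrane proteins, 5 were at least 1.5-fold higher and 0 lower. They were led by Cd63, a protein of late endosomes and exosomes, at 122 and 371 (3.04-fold), and Tm4sf4 at 2315 and 4536 (1.96-fold). Cadherin 1 (Cdh1), the adherens junction protein of epithelia, read 586 and 1150, and Alcam, an adhesion molecule of the immunoglobulin family, 1276 and 2384. Cd24a, a surface glycoprotein of progenitor and ductal cells and of several leukocytes, read 106 and 470 (4.43-fold).

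Ductal transcription factors and carriers were at least 1.5-fold apart in a minority of cases. Of 19 ductal transcription factors and Notch genes, 1 was at least 1.5-fold higher and 0 lower. That gene was Elf3, an epithelial ETS factor, at 51 and 184 (3.61-fold). Sox9, the factor that marks ducts and progenitors, read 202 and 250, and the Notch ligand Jag1, expressed around portal tracts, 103 and 128. Among 14 cholangiocyte channels and carriers, 4 were at least 1.5-fold higher and 1 lower. These included the sodium glucose carrier Slc5a1 (67 and 141), the bicarbonate carrier Slc4a4 (1040 and 1756), the apical bile acid carrier Slc10a2 (469 and 748) and Pkhd1, fibrocystin of the primary cilium (114 and 173). The potassium channel Kcnn2 was the lower one, at 341 and 215.

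Targets of YAP and TEAD, which respond to cell stretch and contact, were higher in 5 of 15 cases at 1.5-fold and lower in 0. The matricellular genes Ccn1 and Ccn2 read 280 and 574 and, for the latter, 258 and 532. The receptor tyrosine kinase Axl read 222 and 513, and the growth factor Tgfb2 46 and 116. Tead1, the DNA-binding partner, is the gene named above at the 2-fold edge.

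Calcium-binding annexins attach to membrane phospholipid, and 4 of 12 were at least 1.5-fold higher and 0 lower. Anxa5, which binds phosphatidylserine, read 791 and 4487 (5.67-fold higher). Anxa2 read 124 and 521 and Anxa3 111 and 280 (2.52-fold). The S100 proteins, partners of annexins, did not move as a family. S100a11, the partner of Anxa1, read 238 and 1172 (4.92-fold), whereas S100a10, the partner of Anxa2, read 4358 and 4691. S100a11 was the 1 of 14 S100 genes that was at least 1.5-fold higher, and 0 were lower.

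The promoter of S100a11 is shown because this gene alone of its family was at least 1.5-fold apart. The stretch runs from 250 bases before the gene's start to 50 bases into it, in RefSeq on GRCm38.p6 at chr3:93520246-93520545, plus strand. Capitals mark matches to the AP-1 site, written TGACTCA or TGAGTCA and searched on both strands. AP-1 is the dimer of JUN and FOS proteins, and the gene Jun read 439 and 934.
S100a11: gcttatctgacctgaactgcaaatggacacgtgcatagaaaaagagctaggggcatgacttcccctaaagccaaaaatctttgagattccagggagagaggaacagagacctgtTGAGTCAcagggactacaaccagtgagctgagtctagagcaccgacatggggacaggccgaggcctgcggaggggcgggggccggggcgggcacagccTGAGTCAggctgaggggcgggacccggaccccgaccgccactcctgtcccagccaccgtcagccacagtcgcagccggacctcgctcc
The window held 2 matches. Such a match occurred in 5.20% of all 32851 promoters in the table, in 3.82% of 10503 promoters of genes that passed the level, in 8.96% of 212 promoters of genes at least 2-fold higher and in 6.56% of 61 promoters of genes at least 2-fold lower. Promoters were in the table for 178 of the 241 higher and 51 of the 78 lower genes. A match is a run of letters and not a shown binding site. The motifs and the genes whose promoters are printed were chosen after the values were seen.

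Macrophage genes were among the clearest groups. Of 17 genes of monocytes and recruited macrophages with a row, 9 were at least 1.5-fold higher and 0 lower, with a median of 0.89. Lyz2, lysozyme, read 847 and 2879 (3.40-fold higher). Ccr2, the chemokine receptor that brings monocytes out of the marrow, read 29 and 118 (4.07-fold). Its ligand Ccl2 read 63 and 290 (4.60-fold). The macrophage glycoprotein Cd68 read 167 and 395, the fractalkine receptor Cx3cr1 72 and 168, the beta-glucan receptor Clec7a 88 and 203 and Ms4a6d 66 and 180.

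Genes of the resident macrophages of liver, the Kupffer cells, had a smaller median difference. Vsig4, their complement receptor, read 666 and 1578 (2.37-fold), and Adgre1, which encodes the F4/80 antigen, 302 and 593 (1.96-fold). Cd5l, a secreted product of these cells, read 439 and 604, under the 1.5-fold line. The Kupffer cell median was 0.46, against 0.89 for the recruited set, whose median intensity in wild type was 66 against 302. With 32 added to each value the medians were 0.40 and 0.54. Together 4 of 13 Kupffer cell genes reached 1.5-fold upward and 0 downward. By sign alone 10 of the 12 that passed the level were higher and 2 lower, the lowest at −0.41. The terminal complement component C6 was among those at least 1.5-fold higher, at 2597 and 4355.

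Signalling and effector parts of phagocytes differed along with them. Among 23 genes of Fc receptors, ITAM adaptors and their kinases, 10 were at least 1.5-fold higher and 0 lower. The shared adaptors Fcer1g (179 and 488) and Tyrobp (278 and 609), the leukocyte tetraspanin Cd53 (218 and 572) and Laptm5, a lysosomal protein of blood cells (308 and 932), led the set. The phagocyte oxidase makes superoxide from 2 membrane subunits and several soluble ones. Cybb, its catalytic subunit, read 445 and 2849 (6.40-fold), while its membrane partner Cyba read 348 and 718 (2.06-fold), the soluble Ncf1 93 and 153 and Rac2 158 and 243. Nox4, a related oxidase not restricted to phagocytes, read 853 and 610.

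Genes for the uptake of dying cells and lipid were partly higher. Mfge8, a secreted bridge between phosphatidylserine and phagocyte integrins, read 155 and 1251 (8.07-fold higher). The bridging protein Gas6 read 394 and 759, its receptor Axl is given above, and the complement recognition chains C1qb and C1qc read 566 and 1287 and, for C1qc, 541 and 1070. In this clearance set 8 of 21 members were at least 1.5-fold higher. The set of lipid-associated macrophage genes had 7 of 19 higher and 1 lower. Its higher members included the cathepsin Ctss (319 and 825), the fatty acid translocase Cd36 (379 and 910), the metalloelastase Mmp12 (51 and 133) and the proton pump subunit Atp6v0d2 (67 and 185). The lower one was the fatty acid binding protein Fabp5, at 1033 and 230 (4.49-fold lower). Lysosomal genes as a whole had 8 of 35 at least 1.5-fold higher, with progranulin (Grn) at 956 and 1669 and legumain (Lgmn) at 1026 and 1771.

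Sensors of microbes were mostly low, and several were higher. Cd14, the co-receptor for endotoxin, read 83 and 296 (3.57-fold), and Tlr2, a receptor for bacterial lipoproteins, 92 and 264 (2.87-fold). The endosomal receptors Tlr13, Tlr8 and Tlr9 read 97 and 272, 57 and 111 and 94 and 170 in that order. In total 7 of 27 toll-like receptor and inflammasome genes were at least 1.5-fold higher and 0 lower.

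Markers of other leukocytes stayed low. None of 16 neutrophil genes with a row reached the level in either pool, and their median was 0.21. Of 26 T and NK cell genes 3 passed: the chemokine Ccl5 (116 and 182), the T cell receptor component Cd3e (94 and 120) and Thy1 (86 and 101). Of 15 B and plasma cell genes 2 passed, the B cell adaptor Bank1 (96 and 147) and the syndecan Sdc1 (874 and 1030), the second of which hepatocytes also make. The mast cell, basophil and eosinophil set had 1 of 13 members passing, the histidine decarboxylase Hdc (102 and 112). Dendritic cell genes passed in 4 of 16 cases, among them Cd24a, named above, the lectin Cd209a (64 and 119) and the factor Irf8 (237 and 317). At these levels, small differences in such cells would not be detectable on the arrays.

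**Figure D2:**
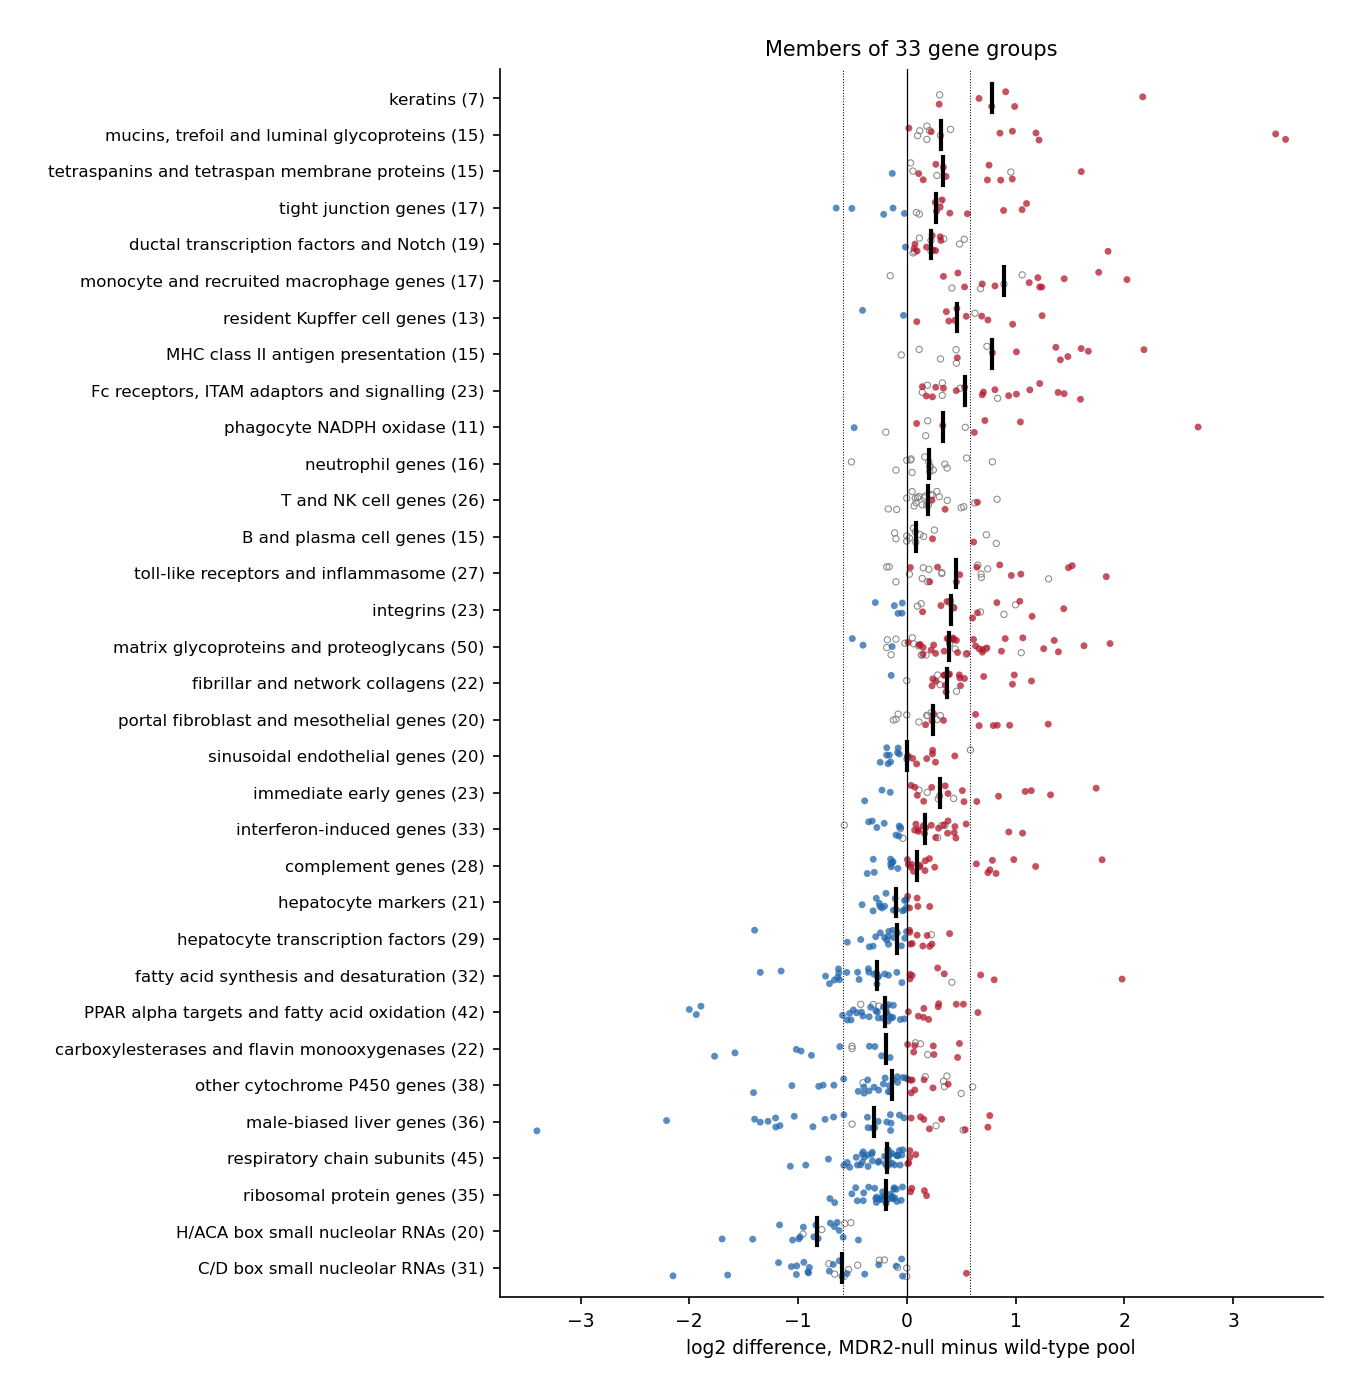
Log2 difference of each member of 33 gene groups, MDR2-null minus wild-type pool, with the number of members that have a row in brackets; filled points passed the level of 100 (red higher, blue lower), open circles did not, and the black bar is the median over all members. Dotted lines mark 1.5-fold; keratins, recruited macrophage and MHC class II genes lie mostly to the right, the last 2 rows (small nucleolar RNAs, chosen after their values were seen) to the left.

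Genes of MHC class II antigen presentation, by which peptides from taken-up protein are shown to T helper cells, were mostly higher where they passed the level. Of 15 with a row, 9 passed the level and 8 of these were at least 1.5-fold higher, with 0 lower and a median of 0.79. The list is not limited to the class II genes themselves. Among class II genes, H2-Oa (43 and 59), H2-Ob (73 and 79) and H2-Eb2 (29 and 28) stayed below the level. Cd74, the invariant chain, read 438 and 1986 (4.53-fold higher). The alpha and beta chains followed, with H2-Eb1 at 426 and 1355 (3.18-fold), H2-Aa at 654 and 1826 (2.79-fold) and H2-Ab1 at 535 and 1424 (2.66-fold). H2-DMa, which helps load peptide, read 154 and 468 (3.04-fold). H2-Ea, outside the list, had the largest difference of any class II gene, 299 and 2927 (9.79-fold). H2-Ea is known to be silent in some mouse strains and active in others, and the labels do not name the strain of either pool. It read 822 and 2854 in the GHR-null and double-null pools. Of the 40 genes nearest to H2-Ea, 28 passed, and the 4 that were at least 2-fold higher were H2-DMa, H2-Ab1, H2-Aa and H2-Eb1; that neighbourhood was chosen after its values were seen.

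Promoters are printed only where they held a match to the motif searched, here and for S100a11 and Tnfaip3. The 2 shown here are of chain genes from the class II antigen presentation group. Both are from RefSeq on GRCm38.p6 with the same window as above. H2-Aa lies at chr17:34287774-34288073, minus strand, and H2-Eb1 at chr17:34305617-34305916, plus strand. Capitals mark the Y box, written CTGATTGG and searched on both strands, the element of class II promoters bound by the factor NF-Y.
H2-Aa: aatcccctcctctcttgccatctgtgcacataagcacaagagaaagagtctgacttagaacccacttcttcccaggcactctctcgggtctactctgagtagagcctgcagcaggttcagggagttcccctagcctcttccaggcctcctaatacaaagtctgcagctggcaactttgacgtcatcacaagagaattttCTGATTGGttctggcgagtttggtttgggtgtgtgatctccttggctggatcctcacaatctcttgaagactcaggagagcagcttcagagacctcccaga
H2-Eb1: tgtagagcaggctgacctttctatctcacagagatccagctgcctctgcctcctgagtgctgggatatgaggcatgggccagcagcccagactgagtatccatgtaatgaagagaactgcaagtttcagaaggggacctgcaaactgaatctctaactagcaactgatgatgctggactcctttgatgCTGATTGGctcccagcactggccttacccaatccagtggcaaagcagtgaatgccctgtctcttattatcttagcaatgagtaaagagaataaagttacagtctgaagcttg
The match begins 51 bases before the gene's start in H2-Aa and 62 bases before it in H2-Eb1. It was found in 4 of 14 promoters of the class II group (28.6%), in 4.10% of all promoters, in 4.85% of those of genes that passed the level, in 5.19% of promoters of genes at least 2-fold higher and in 6.56% of those at least 2-fold lower. The search takes exact letters, and a promoter without this run may hold a variant of it.

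Few class I and interferon-induced genes reached 1.5-fold. Of 14 class I and antigen processing genes, 2 were at least 1.5-fold higher and 0 lower, with a median of 0.38. They were the class I gene H2-Q4 (258 and 430) and the immunoproteasome subunit Psmb8 (270 and 406). The class I activator Nlrc5 read 443 and 643, but its log2 difference of 0.54 fell to 0.18 when its rows were averaged. Among 33 interferon-induced genes, 2 were at least 1.5-fold higher and 0 lower. They were the nucleic acid sensor Zbp1 (152 and 318, 2.09-fold) and Oasl1 (167 and 320, 1.92-fold). The other members included Usp18 (284 and 386), Gbp3 (100 and 146) and Ifi27 (1311 and 1793), and the median was 0.16.

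Chemokine and cytokine systems held many low genes and some that were clearly higher. At 1.5-fold, 10 of 43 chemokines and receptors were higher and 0 lower. Beside Ccl2, these included the scavenger chemokine Cxcl16 (113 and 336), the T cell attractant Cxcl9 (216 and 470) and Cxcl14 (141 and 301). In the interleukin, TNF and colony stimulating factor systems 13 of 46 were higher and 2 lower. Csf1, the growth factor of macrophages, read 142 and 307, and its receptor Csf1r 449 and 946. The cytokine Il1b read 57 and 119 and its soluble antagonist Il1rn 103 and 231. Il17rb, a receptor for interleukin 25, read 180 and 396. Tnfaip3, which encodes the ubiquitin-editing inhibitor A20 and is a target of NF-kappaB, had the largest difference of the set at 54 and 191 (3.54-fold).

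The promoter of Tnfaip3 is shown as that of the gene with the largest cytokine-system difference. It lies at chr10:19015361-19015660, minus strand, in RefSeq on GRCm38.p6. Capitals mark matches to the NF-kappaB site, in its usual degenerate form, on both strands.
Tnfaip3: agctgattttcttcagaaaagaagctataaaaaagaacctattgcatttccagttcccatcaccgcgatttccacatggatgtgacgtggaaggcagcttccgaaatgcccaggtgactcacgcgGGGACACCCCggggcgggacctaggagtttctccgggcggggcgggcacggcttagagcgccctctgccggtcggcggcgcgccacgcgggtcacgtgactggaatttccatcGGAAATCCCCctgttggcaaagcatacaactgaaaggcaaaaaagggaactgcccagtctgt
The window held 2 matches, beginning 125 and 12 bases before the gene's start. A match was found in 4.51% of all promoters, 5.11% of those of genes that passed the level, 8.49% of those of genes at least 2-fold higher and 4.92% of those of genes at least 2-fold lower.

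Plasma proteins of the acute phase went both ways. Lcn2, a siderophore-binding protein that hepatocytes and neutrophils can make, read 652 and 6302 (9.67-fold higher). Orm2 (922 and 2242) and Lrg1 (2269 and 4357), a pair of acute phase glycoproteins, were also higher, whereas the serum amyloid gene Saa3 was lower at 619 and 332. Over the set, 8 of 34 were at least 1.5-fold higher and 3 lower, with a median of 0.07. Of 28 complement genes 8 were higher and 0 lower. Beside the C1q chains named above, these included receptors of leukocytes: C3ar1 read 91 and 316 (3.47-fold), C5ar1 60 and 106. Properdin (Cfp), a leukocyte product, read 279 and 474. Coagulation genes had 1 higher, the anticoagulant Pros1 (739 and 1164), and 1 lower, factor XI (F11, 1268 and 783), of 24.

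The main interstitial collagens were about 2-fold higher in the MDR2-null pool, while most matrix genes did not reach 1.5-fold. Col1a1 read 188 and 373, Col1a2 182 and 403 and Col3a1 180 and 353, the chains of the fibrils that accumulate in fibrosis. Of 22 collagens, 4 were at least 1.5-fold higher and 0 lower, with a median of 0.37. The basement membrane chain Col4a2 read 126 and 182. Among collagen processing enzymes 3 of 20 were at least 1.5-fold higher and 0 lower. They were the prolyl hydroxylation cofactor Crtap (137 and 234), the procollagen C-proteinase enhancer Pcolce (145 and 243) and the collagen chaperone Serpinh1 (97 and 151).

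Among 50 matrix glycoproteins and proteoglycans, 14 were at least 1.5-fold higher and 0 lower. Nid1, nidogen of the basement membrane, had the largest difference at 199 and 727 (3.65-fold). The hyaluronan receptor Cd44 read 74 and 229 (3.09-fold), the SPARC relative Sparcl1 124 and 326 and matrix Gla protein (Mgp) 59 and 151. The collagen-binding proteoglycan lumican (Lum) read 199 and 417. Remodelling genes were higher in 6 of 32 cases. Timp1, the inhibitor that marks fibrogenic livers, read 40 and 129 (3.23-fold), the gelatinase Mmp2 142 and 287, its activator Mmp14 372 and 586 and the epithelial matrilysin Mmp7 71 and 113.

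Stellate cells and portal fibroblasts make most of this matrix. In the stellate and PDGF set 7 of 29 were at least 1.5-fold higher and 0 lower. Actin of smooth muscle and activated stellate cells (Acta2) read 150 and 324, vimentin (Vim) 569 and 1279, cytoglobin (Cygb), a stellate cell globin, 346 and 709, the receptor Pdgfrb 149 and 289 and the growth factor Pdgfa 230 and 472. Of 20 portal fibroblast and mesothelial genes, 6 were higher and 0 lower, led by dermatopontin (Dpt, 110 and 271) and with the ectonucleotidase Entpd2 at 123 and 219 and elastin (Eln) at 99 and 157. The TGF beta, activin and BMP system was less affected, 4 of 40, with the receptor Tgfbr2 at 250 and 477 and the follistatin relative Fstl1 at 78 and 164.

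Integrins and adhesion receptors combined leukocyte and epithelial members. The leukocyte beta chain Itgb2 read 82 and 223 and its partner Itgal 107 and 190, while Itga2, a collagen receptor chain, read 63 and 140 and Itgav 444 and 697. In all 6 of 23 integrins were at least 1.5-fold higher and 0 lower. Vcam1 (147 and 399) and Icam1 (154 and 346), the ligands on which leukocytes arrest, were both over 2-fold higher. Actin and tubulin genes had 11 of 36 higher and 2 lower, including transgelin 2 (Tagln2, 140 and 609, 4.35-fold) and the Arp2/3 subunit Arpc1b (746 and 1745).

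Endothelial genes differed little. None of 20 sinusoidal endothelial genes was at least 1.5-fold apart in either direction, and their median was 0.00. Clec4g, a lectin of these cells, read 2319 and 2735, and Dnase1l3, a secreted nuclease, 1060 and 895. The vascular set had 1 of 24 higher, Cd34 (87 and 151), which portal stromal cells also carry, and the growth factor Vegfa read 1168 and 928.

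Cell cycle genes were partly higher, from low levels. Ccnd1, cyclin D1, which drives entry into the cycle, read 280 and 1456 (5.20-fold higher). Of 39 G1 to S and replication genes 7 were at least 1.5-fold higher and 2 lower. The replicative helicase subunits Mcm6 (55 and 114) and Mcm4 (82 and 134) were higher, and Mcm10 lower (245 and 134). Only 8 of 39 mitosis genes reached the level, of which 4 were higher, among them cyclin B2 (Ccnb2) at 76 and 133 and the kinase Aurkb at 67 and 120. Cdk1, the kinase that cyclin B binds, read 80 and 128. The microtubule regulator stathmin (Stmn1) read 178 and 405.

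Immediate early genes, which respond within minutes to stimuli, were at least 1.5-fold higher in 6 of 23 cases and lower in 0. The orphan receptor Nr4a1 read 61 and 204 (3.34-fold), Atf3 84 and 210, Klf6 171 and 378 and Egr1 112 and 201. Among p53 targets and death genes 4 of 29 were higher, including Mlkl, the effector of necroptosis (83 and 245, 2.95-fold), and Casp12 (46 and 145). The unfolded protein response had 1 higher, Atf3 again, and 2 lower, the factor Atf4 (320 and 182) and its target Chac1 (264 and 154), of 34. Of 39 antioxidant and NRF2 target genes 1 was higher, the glutathione transferase Gstm3 (3376 and 5584), and 3 were lower. The lower ones were the metallothioneins Mt2 (3599 and 2000) and Mt1 (883 and 544) and the transferase Gstm6 (2264 and 1483). Nfe2l2, which encodes NRF2 itself, was not on that list and read 912 and 1883.

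Bile acid genes, the ones nearest to the function of MDR2, differed by set. None of 20 genes of bile acid synthesis and conjugation was at least 1.5-fold apart, with a median of −0.25. Cyp7a1, the rate-limiting enzyme, read 2703 and 3732, Cyp8b1, which sets the share of cholic acid, 1666 and 1229, and Cyp7b1 of the alternative pathway 4966 and 3326. Transporters went both ways. Of 27 with a row 24 passed the level, and 4 were at least 1.5-fold higher and 3 lower. Across all genes that passed, 6.11% were higher and 3.58% lower. The basolateral exporter subunit Slc51b read 88 and 226 (2.57-fold), and Abcb1b, a multidrug exporter next to Abcb4 in the genome, 59 and 129 (2.19-fold). The organic anion carrier Slco3a1 read 138 and 286. The male-biased uptake carrier Slco1a1 was lower at 4072 and 2419. In the sensing and feedback set, the repressor Nr0b2 read 577 and 395 and beta-klotho (Klb), the co-receptor for FGF15, 610 and 316, with 2 of 17 higher and 1 lower.

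Phospholipid and sphingolipid genes, a wider set than the genes for the lipid MDR2 carries, had 5 of 31 at least 1.5-fold higher and 1 lower. The lower one was Abcb4. Smpd3, neutral sphingomyelinase, read 64 and 308 (4.81-fold), the lysophosphatidylcholine acyltransferase Lpcat2 60 and 178 (2.97-fold) and Pla2g7, which degrades platelet activating factor, 221 and 467. Gdpd3, a glycerophosphodiesterase that acts on lysophospholipids and was not on the list, read 29 and 407. Its wild-type value is far under the level, and its log2 difference of 3.81 fell to 2.85 with 32 added to each value.

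Many of the lower genes encode enzymes and secreted products of hepatocytes. After the small nucleolar RNA sets given further on, the list with the most 1.5-fold lower members was that of male-biased genes, which in mouse liver depend on the pulses of growth hormone that males release. At 1.5-fold 12 of 36 were lower and 2 higher, with a median of −0.30. Hsd3b5, a steroid reductase, had the largest difference of the lower genes at 3877 and 367 (10.6-fold lower). Serpina4-ps1, a transcribed pseudogene, read 3380 and 731 (4.62-fold lower), the fatty acid elongase Elovl3 2806 and 1103 and Hsd3b2 2131 and 880. Onecut1, which encodes the hepatocyte factor HNF6, read 1150 and 436 (2.64-fold lower). Female-biased genes were low in wild type, with a median intensity of 72.5, and 14 of 30 passed the level. Their median log2 difference was 0.03 over all 30 and 0.43 with the level set at 329. At 1.5-fold 5 were higher and 2 lower. The lower ones were hepcidin 2 (Hamp2, 588 and 142, 4.14-fold lower) and the peroxisomal carrier Abcd2 (280 and 146). Signalling genes of growth hormone and IGF held few differences, 2 of 29 higher and 0 lower. Socs2, a direct target of the receptor, read 782 and 535, Igf1 3951 and 3766, and Igfbp7, which stromal and endothelial cells also make, 2833 and 5396.

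Genes of fatty acid handling were lower more often than higher. Of 32 synthesis and desaturation genes 9 were at least 1.5-fold lower and 3 higher; their median was −0.28. Acacb, the acetyl-CoA carboxylase of mitochondria, read 635 and 285 (2.23-fold lower), the acetyl-CoA synthetase Acss2 2781 and 1699 and the acyltransferase Gpam 2573 and 1533. Elovl7, an elongase, stood on the other side at 54 and 213 (3.94-fold higher). The oxidation set had 4 of 42 lower and 1 higher. Its lower members were 3 Cyp4a genes, omega-hydroxylases that respond to PPAR alpha, and the long-chain dehydrogenase Acadvl (1640 and 1089). Cyp4a31 read 416 and 104, Cyp4a14 153 and 40 and Cyp4a10 557 and 150, with 3.71-fold lower signal for the last; Cyp4a genes are close copies, so their probe sets may share signal. The intestinal type fatty acid binding protein Fabp2 read 1251 and 530 (2.36-fold lower). Lpl, the lipase that stromal cells and macrophages make, was higher at 373 and 730.

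Few cholesterol and lipoprotein genes reached 1.5-fold. None of 23 cholesterol genes was at least 1.5-fold higher and 2 were lower, the carrier Stard4 (912 and 587) and the SREBP retention protein Insig1 (5836 and 3767). In the apolipoprotein set 2 of 20 were lower, Apom (916 and 498) and the lipase regulator Angptl8 (966 and 631), and 0 higher.

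Drug and xenobiotic enzymes were also on the lower side. Of 22 carboxylesterases and flavin monooxygenases 6 were at least 1.5-fold lower and 0 higher. Ces1e read 1624 and 477 (3.40-fold lower), Ces2a 1429 and 478 (2.99-fold) and Ces1b 2681 and 1326 (2.02-fold). Targets of the nuclear receptors CAR and PXR had 5 of 24 lower and 1 higher. Cyp2c54 read 2314 and 903 and the abundant Cyp2c29 8139 and 4468. Among the remaining cytochrome P450 genes 5 of 38 were lower and 0 higher, with Cyp2c68 at 1142 and 430 and Cyp2d40 at 443 and 213. Conjugating enzymes went both ways. Of 30 glucuronosyltransferases and glutathione transferases 2 were lower, among them Gstt3 (338 and 161), and 1 was higher, Gstm3 (3376 and 5584). Of 13 sulfotransferases 2 were lower, Sult5a1 (272 and 146) and Sult1b1 (587 and 336), and 1 was higher, Sult1a1 (764 and 1166), with a median of −0.08 that became positive under both stricter level filters. Inmt, a methyltransferase for small amines outside these lists, was the most intense gene at least 2-fold lower, at 4937 and 1765 (2.80-fold). The P450 and esterase families hold near-identical members, so single members are uncertain.

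Few genes of central metabolism were at least 1.5-fold apart, and those that were lay lower in the MDR2-null pool. Pdk1, a kinase that closes pyruvate dehydrogenase, read 817 and 322 (2.54-fold lower) and Ppp1r3c, a glycogen-targeting subunit, 1560 and 751 (2.08-fold). They were among 3 of 38 sugar genes at least 1.5-fold lower. Among 45 amino acid and urea genes 3 were lower and 0 higher, including Amt of the glycine cleavage system (719 and 362) and the histidase Hal (3840 and 2381). Respiratory chain subunits had a median of −0.18, with 3 of 45 lower by 1.5-fold and 0 higher, Ndufb3 of complex I leading at 397 and 189. Ribosomal proteins had a like median of −0.19, with 2 of 35 lower. By sign alone 40 of the 45 respiratory and 31 of the 35 ribosomal protein genes were lower, against 5627 of the 10258 genes that passed. No loading standard was on the arrays as used here.

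Regulators and zonal genes of hepatocytes were largely level. Of 29 hepatocyte transcription factors 1 was at least 1.5-fold lower, Onecut1, and 0 higher, while Cebpa read 2116 and 1707 and Hnf4a 2833 and 3279. Pericentral genes had 2 higher and 2 lower of 21, and periportal genes 1 and 2 of 20. The higher periportal gene was Cdh1, named above, and the lower pair was Hal and Etnppl (1416 and 798). Clock genes divided. The activator Arntl read 234 and 109 and Nfil3 426 and 217, both lower. Per1 read 114 and 195 and Noct 232 and 453, both higher. The times of day at which livers were taken are not in the labels.

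Fetal and tumour markers were seldom above the level at this age. Of 27 with a row 9 passed, and 6 were at least 1.5-fold higher. Golm1, a Golgi protein raised in liver disease, read 58 and 209 (3.60-fold), and galectin 1 (Lgals1) 327 and 1009 (3.09-fold). Alpha-fetoprotein (Afp) read 58 and 55 and glypican 3 (Gpc3) 50 and 44. Growth factor systems were quiet apart from single members. Nrg1 (53 and 110) and betacellulin (Btc, 99 and 185) were the 2 higher of 14 EGF family genes. The TWEAK receptor Tnfrsf12a, found on progenitor cells, read 162 and 311, and 1 of 32 WNT and hedgehog genes was higher, the inhibitor Sfrp1 (58 and 104).

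Sets for tissue other than liver held few genes at least 1.5-fold apart. There were none among 14 muscle, 14 pancreatic acinar, 11 adipocyte and 8 platelet genes. The muscle set still had a median of −0.315, and the 6 members that passed the level were all lower, by −0.13 to −0.49, with wild type the highest of the 4 pools in all 6. Tnni2, a troponin of fast muscle, was the most intense of them at 178 and 133. The medians of the acinar, adipocyte and platelet sets were 0.01, −0.12 and 0.09. The erythroid set had 1 of 12 lower, the carbonic anhydrase Car1 (1270 and 665), while Alas2 of red cell haem synthesis read 1340 and 1161. The gallbladder and gut set had 3 of 18 higher and 2 lower, most of them genes given above (Tff2, Slc5a1, Fabp2 and Sult1b1).

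Several of the largest differences fell outside these groups. D17H6S56E-5, a locus within the MHC region, had the largest of all at 45 and 1016 (22.6-fold higher), and none of its 24 passing neighbours among the nearest 40 was at least 2-fold apart. Cib3, a calcium-binding protein, read 140 and 1366 (9.76-fold), the transcription factor Mybl1 24 and 195 (8.12-fold) and Sprr1a, a cornified envelope protein, 70 and 498 (7.11-fold). The actin bundler of microvilli Pls1 read 89 and 466, the citrate carrier Slc13a5 66 and 328 and the glycerol channel Aqp7 33 and 153. Further high differences were those of the PDZ protein Gipc2 (33 and 195), the reelin adaptor Dab1 (58 and 235), the niacin receptor Hcar2 (32 and 126) and the neurotrophin receptor Ntrk2 (74 and 284). The most intense of the 241 genes was Ly6e, a lipid-anchored surface protein, at 3377 and 8966 (2.65-fold).

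On the lower side, Sdr9c7, a dehydrogenase, read 944 and 272 (3.47-fold lower), and Leap2, a secreted liver peptide that blocks the ghrelin receptor, 285 and 87 (3.28-fold). Sugct of glutarate metabolism read 317 and 95, the lectin-like Clec2h 641 and 219 and the purine receptor P2ry4 557 and 212. Genes with no settled liver role were also among the 30 lowest: the adhesion receptor Adgrf1 (222 and 67), the nicotinic receptor subunit Chrna4 (448 and 146), the meiotic gene Spata22 (226 and 75), Lrtm1 (231 and 77) and the pseudogene Adh6-ps1 (606 and 183). Predicted loci made up 2 of the 241 higher and 4 of the 78 lower genes; their share of all genes compared was not counted.

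Small nucleolar RNAs formed a block of lower rows. This family was chosen after its values were seen. Of the 78 genes at least 2-fold lower 13 were small RNAs, against 0 of the 241 higher. For their share of all genes compared, the comparison held 10258 genes with small RNA rows and 10158 without them. Box C/D small nucleolar RNAs, which guide methylation of ribosomal RNA, had 14 of 31 rows at least 1.5-fold lower and 0 higher, the median being −0.60. Box H/ACA ones, which guide pseudouridylation, had 14 of 20 lower and 0 higher, the median being −0.83. Snord118, the U8 RNA, read 497 and 112 (4.44-fold lower), Snora62 185 and 57 (3.25-fold) and Snord87 357 and 114 (3.13-fold). Mir122, the row of the precursor of the main liver microRNA, read 204 and 64 (3.19-fold lower). MicroRNA rows as a set did not share this direction. Their median was 0.00 over all 287 rows and 0.19 over the 52 that passed. By sign 39 of the 52 were higher and 13 lower, and at 1.5-fold 2 were higher and 2 lower.

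For the small nucleolar RNAs the wild-type pool was also above both pools without GHR at the median. It was the highest of the 4 pools in 17 of 21 C/D and 15 of 16 H/ACA rows that passed, against 18.0% of all passing genes. In the pair without GHR the medians were 0.16 for C/D and 0.01 for H/ACA rows. Without small RNA rows the counts at 2-fold were 241 higher and 65 lower.

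**Figure D3:**
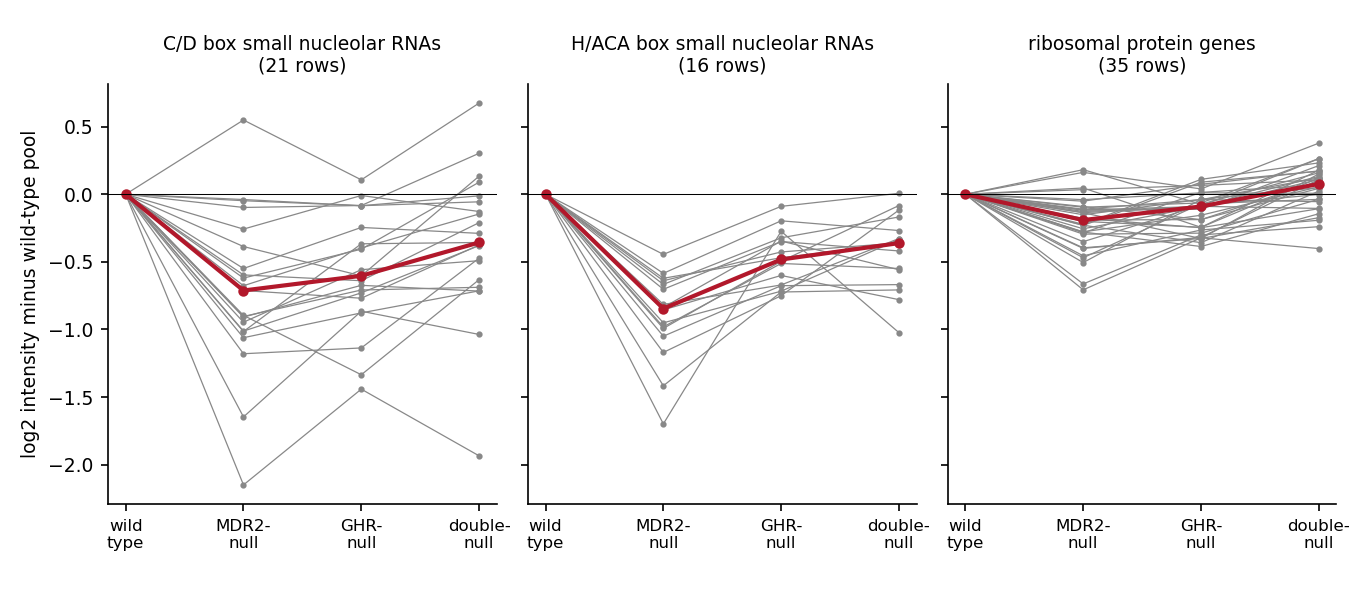
Log2 intensity in the 4 pools minus that of the wild-type pool, for 21 C/D and 16 H/ACA small nucleolar RNA rows and 35 ribosomal protein genes that passed the level; grey lines are single rows and the red line their median. Both kinds of small nucleolar RNA lie below wild type in all 3 mutant pools at the median, and lowest in the MDR2-null pool.

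The second pair of arrays, double-null against GHR-null, asks the same question where GHR is absent and shares no array with the first. There 10514 genes passed the level, 496 were at least 2-fold higher without MDR2 (4.72%) and 326 at least 2-fold lower (3.1%). At 1.5-fold, 5.27% of all genes with a row were higher and 5.24% lower. Of the 241 genes higher with GHR present, 173 (71.8%) were also at least 2-fold higher in the pair without GHR, which is 34.9% of the 496. By sign alone, 232 were higher there and 9 lower. Of the 78 lower genes, 42 (53.8%) were also at least 2-fold lower, 12.9% of the 326, and 62 had the same sign against 16 that did not. Over the 10008 genes that passed in both pairs the 2 sets of log2 differences correlated at a Pearson r of 0.67, a description across genes, which are not independent. The GHR-null pool is the one that carried Xist, so sex composition may differ within the second pair; its part was not tested.

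Several groups with a raised median with GHR present also had one without it. The keratin median was 0.78 with GHR and 1.21 without, and that of recruited macrophage genes 0.89 and 1.66. The class II antigen presentation set had 0.79 and 0.74. Collagens had 0.37 and 0.37. Kupffer cell genes had 0.46 and −0.20, and class I genes 0.38 and −0.12, with the sign turned in the pair without GHR. Single genes could go further in the pair without GHR. Dmbt1 read 37 and 1419 in the GHR-null and double-null pools (38.4-fold, against 10.5-fold with GHR), Cd63 171 and 1804 (10.5-fold, against 3.04-fold) and Ccl2 63 and 1192 (18.9-fold, against 4.60-fold). Others were near equal in both pairs, such as Plet1 at 148 and 1356 and Anxa5 at 843 and 4252. The male-biased median was −0.30 with GHR and −0.08 without, where Hsd3b5 (21 and 20), Elovl3 (28 and 24) and Serpina4-ps1 (29 and 23) were already at the bottom of the range. The female-biased median was 0.03 with GHR and −0.99 without, where 18 of 30 were at least 1.5-fold lower and 4 higher. Their median intensity was 517.5 in the GHR-null pool, the one that carried Xist, and 246 in the double-null pool. The part of sex composition in this difference was not tested. Interferon-induced genes had medians of 0.16 and −0.24.

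**Figure D4:**
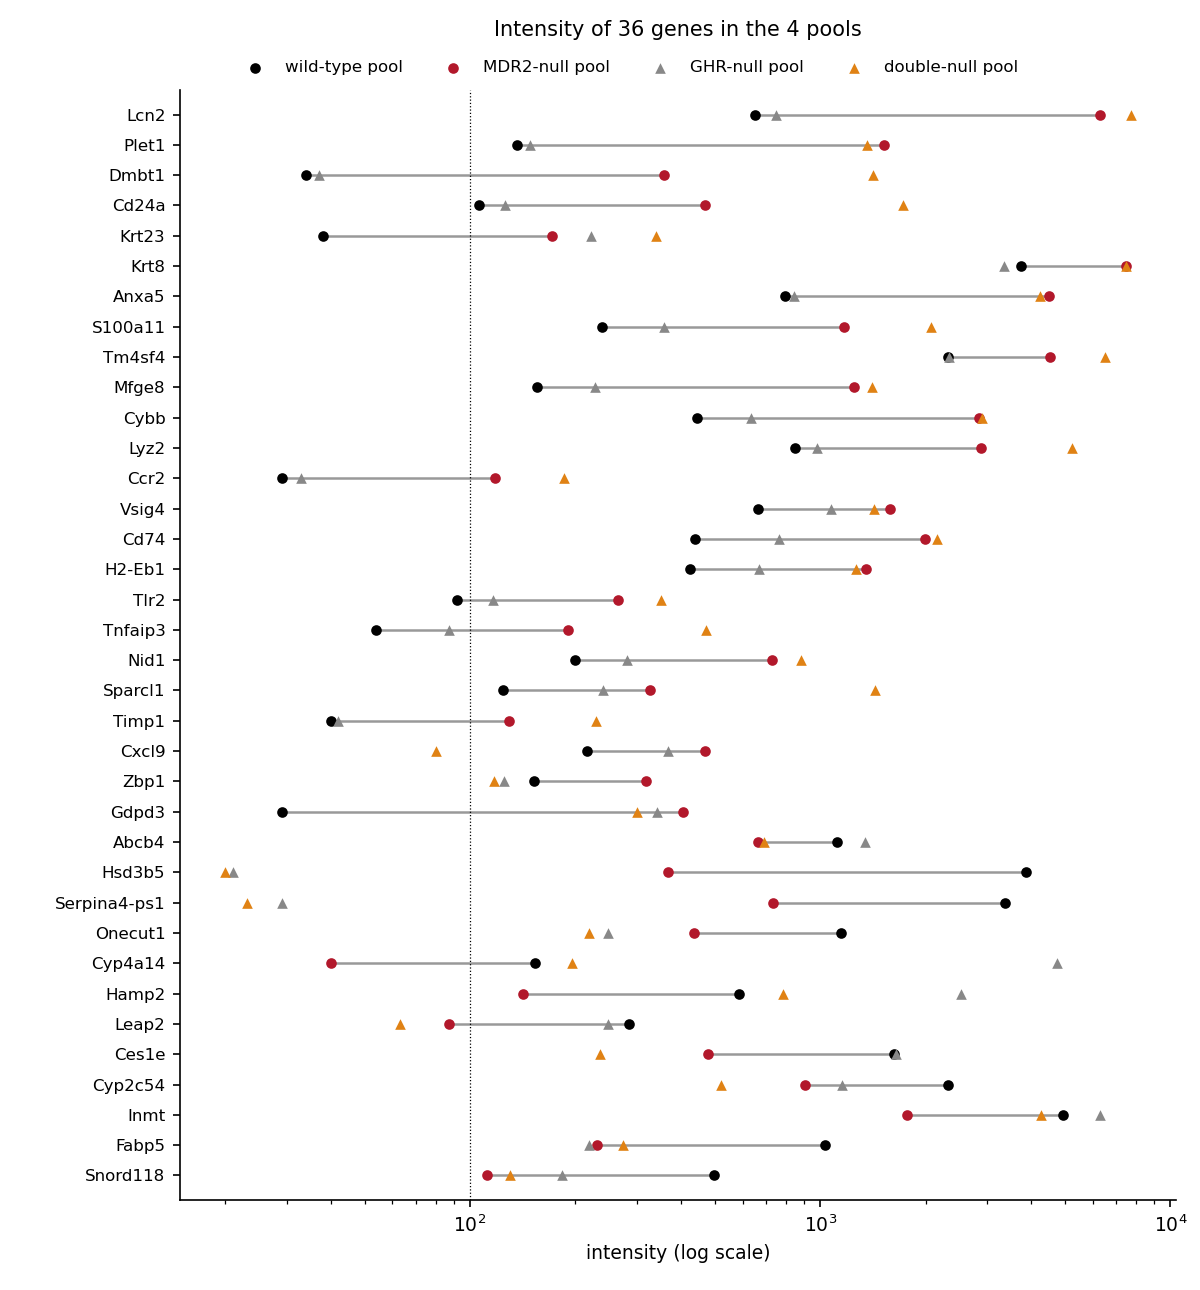
Intensity on a log scale of 36 genes in the 4 pools of 3 livers; circles joined by a line are wild type and MDR2-null, triangles are GHR-null and double-null, and the dotted line is the level of 100. For genes from Lcn2 to Timp1 the red circle and the orange triangle lie to the right of their partners; Gdpd3 is low in the wild-type pool only, and Hsd3b5 and Serpina4-ps1 are high only where GHR was present.

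At 1.5-fold, 213 of the 241 higher and 47 of the 78 lower genes also differed in the same direction without GHR, and the rest did not. Gdpd3 read 342 and 299 in the GHR-null and double-null pools, so the wild-type pool was the low one of the 4. Cxcl9 (367 and 80) was lower rather than higher, as were Cd36 (2232 and 1394) and Atp6v0d2 (561 and 346). Zbp1 and Oasl1, the interferon-induced pair, read 125 and 117 and, for Oasl1, 179 and 164. Among lower genes, Fabp5 read 219 and 274 and Adgrf1 139 and 250 (1.80-fold higher), so both were higher in the pair without GHR, and Susd4, which read 808 and 360 with GHR, read 70 and 193. With 1 pool each, none of these differences between the pairs was tested. Other lower genes kept their direction: Ces1e read 1643 and 235 (6.99-fold lower), Cyp4a14 4748 and 196 (24.2-fold) and Leap2 248 and 63 (3.94-fold). So did Hamp2, at 2528 and 782 (3.23-fold), a member of the female-biased set, whose median was also lower in that pair. Each of these folds rests on the GHR-null pool, which carried Xist, and the part of sex composition in them was not tested.

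**Figure D5:**
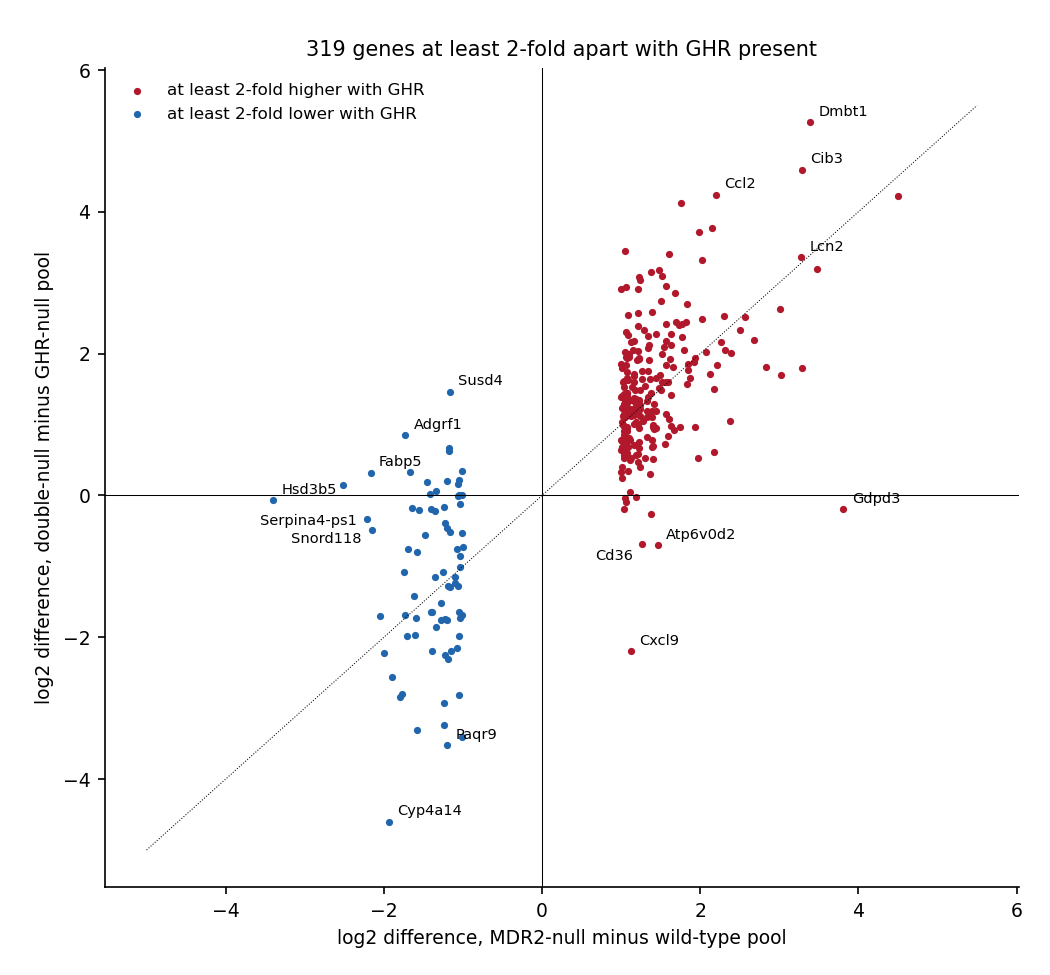
Log2 difference in the pair without GHR (double-null minus GHR-null, vertical) against that with GHR (MDR2-null minus wild type, horizontal) for the 319 genes at least 2-fold apart with GHR present; the dotted line marks equal differences. Most red points lie above 0 on the vertical axis (232 of 241), blue points are more mixed (62 of 78 below 0), and Cxcl9 and Susd4 lie on the opposite side.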

How the data were processed

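RNA from 3 pooled livers per genotype was hybridised to 1 array each. Per the submitters' processing notes the authors processed the arrays by RMA in Affymetrix Expression Console 1.1, a method of background correction, quantile normalization and probe summary. The deposited values are linear intensity, whole numbers from 6 to 22355, and log2 was taken here; quantile normalization can hide a shift shared by most genes, and rounding makes low values coarse. Of 35556 rows, 21789 had 1 gene symbol in the platform annotation, 1621 several and 12146 none. Where a gene had several rows, the one with the highest 4-array mean was used. A level of 100 in the higher array was required. The members, the 89 gene lists, the thresholds (2-fold, and 1.5-fold for lists) and the motifs were chosen with earlier results of these data known, and 9 further families after their values were seen.

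Genes named are Abcb4, Ghr and sex-linked genes, the 30 highest and 30 lowest, and the 6 members of each list with the largest differences; others were chosen after their values were seen. Promoter sequences are RefSeq's on GRCm38.p6. Python 3.11.15, pandas 2.3.3, numpy 2.4.6, R 4.3.3 and limma 3.58.1 (cyclic loess only) were used. The scripts were tested on simulated data.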

Additional observations from a re-analysis of the deposited data

Results flagged for a closer look

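Cxcl9 and Susd4 were at least 2-fold apart in opposite directions with and without GHR. For Cxcl9, a chemokine induced by interferon gamma, the log2 difference was 1.12 with GHR (216 and 470) and −2.20 without (367 and 80), so the second minus the first was −3.32. For Susd4, a complement regulator, it was −1.17 (808 and 360) and 1.46 (70 and 193), a difference of 2.63. Each rests on 1 pool per genotype, and the difference was not tested.

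Rows outside the comparison also carried signal. Probe set 10523717, which has no gene name in the annotation, read 945 in wild type against 6146 without MDR2, a log2 difference of 2.70, and 754 and 5365 in the GHR-null and double-null pools. Of 799 passing rows with several gene symbols, 8 were at least 2-fold higher and 12 lower. Of 3754 passing rows with no symbol, 51 were at least 2-fold higher and 84 lower.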

How the results depend on the processing

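The main counts at 2-fold were 241 higher and 78 lower. The fold threshold moved the higher count most: 1.5-fold gave 627 (lower 367) and 3-fold 57 (lower 22). Level filters gave 106 with a level of 329 (the 75th percentile; lower 54) and 128 with both arrays at 100 (lower 59). Adding 32 to each value before log2 gave 143 and 56. Counts with no filter (266 and 84), cyclic loess (252 and 66), centring on the median (259 and 72) or on hepatocyte markers (233 and 81), averaging a gene's rows (240 and 78) and rows with several symbols added (247 and 85) were within 1.5 times. No scaling moved the overall median by 0.1. The 3 scalings (loess and both centrings) turned the sign of list medians near 0 for the sinusoidal endothelial, WNT and hedgehog, periportal, sugar metabolism, acinar and microRNA sets, and of no other list. With fewer members left by the 2 stricter filters, list medians of at least 0.1 in size changed sign for antioxidant genes (−0.0225), phospholipid genes (−0.0597), bile acid sensing (−0.11), the adipocyte set (0.0409), EGF genes (−0.17 and −0.0289), erythroid genes (−0.57 and −0.21) and the gallbladder set (−0.38 and −0.38). Under 1 or both of these filters smaller medians also changed sign, for the FGF, HGF, VEGF and TWEAK set (lowest −0.26), WNT and hedgehog genes (−0.14), S100 proteins (−0.05), acute phase genes (−0.0039), acinar genes (−0.29), platelet genes (−0.08) and sulfotransferases (highest 0.06). Of 777 list medians over the alternatives, 734 stayed within 0.23 of the main value and 33 moved by more. A further 10 changed sign from a main median of at least 0.1 in size. Of 3454 values of named genes, 85 moved and 0 reversed. Of the 85, 83 moved under the offset and 2 when a gene's rows were averaged. Those were Nlrc5 (log2 difference 0.54 to 0.18) and Gstm3 (0.73 to 1.22).

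No replicate could be left out, and no paired analysis was possible because each genotype has 1 array. Array number limits every value. Differences near 0.23 (log2) are no larger than the scale taken from departures from additivity, and spread between animals could not be estimated.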

Other observations

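Further families, defined by gene symbol after their values were seen, and lists not described above gave these values (wild type, then MDR2-null). The MS4A family, membrane proteins of leukocytes, had 4 of 19 rows at least 1.5-fold higher and 0 lower, including Ms4a6c (138 and 491) and Ms4a6b (60 and 125). C-type lectins, which hold phagocyte receptors as well as hepatocyte genes, had 3 of 33 higher, among them Clec12a (91 and 204) and Clec4a3 (103 and 231), and 2 lower, among them Clec2h (641 and 219). Complex I subunits and assembly factors had 6 of 43 lower and 0 higher, with a median of −0.30. Mitochondrial ribosomal proteins had a median of −0.22 and proteasome subunits of −0.17, with 6 of 77 and 2 of 50 lower.

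In the serpin family, inhibitors of proteases, 4 of 20 were at least 1.5-fold higher and 2 lower. Serpina7, the thyroxine-binding globulin, read 504 and 1071, and the intracellular inhibitor Serpinb6a 178 and 382, while Serpina12, vaspin, was lower at 238 and 94. Iron genes had 1 of 20 higher, the ferrireductase Steap4 (1818 and 3265), and 1 lower, Hamp2, named above. Of 23 Ly6 and lipid-anchored genes 4 were higher and 0 lower. Emp1 and Emp2, epithelial membrane proteins chosen after their values were seen, read 75 and 174 and, for Emp2, 160 and 475. St14, the membrane protease matriptase chosen likewise, read 66 and 195.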
